A study of Rattus norvegicus with 4 samples.

Results

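The genes described here encode the proteins of the cytosolic ribosome and of the mitochondrial ribosome in the rat. They were taken by symbol from the table of 21473 probes that the authors deposited. Symbols of Rpl or Rps followed by a digit, with Rplp0, Rplp1, Rplp2 and Rpsa and without the Rps6 kinases, made up the cytosolic set of 141 probes for 81 genes. Symbols of Mrpl or Mrps followed by a digit made up the mitochondrial set of 80 probes for 70 genes, 3 of them written in lower case in the table. Together they were 221 of the 30367 probes on the array.

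RNA was measured on one-colour Agilent arrays after 15 days of culture of bone marrow cells from Wistar rats aged 6 weeks, either at high density (2 arrays) or at regular density (2 arrays). The submitters describe 2 independent experiments, with other high density cells in each, and name no genetic change or added agent in either group; seeding numbers and media are not stated there. The source label of all 4 samples is endothelial progenitor cells. Of 7 marker symbols for such cells, 4 were matched in the authors' table, of which Vwf and Cdh5 were above background on all 4 arrays, Prom1 on both high density arrays and on neither regular density array, and Kdr on 1 high density array and on no regular density array. Whether the replicates come from separate animals is not said, so the p-values below measure only the spread between these samples.

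The cytosolic ribosome makes the proteins encoded by the nucleus, and its parts are assembled in the nucleolus from ribosomal RNA and imported ribosomal proteins. Vertebrate mRNAs of its proteins typically start with a C followed by a run of pyrimidines, the 5′ terminal oligopyrimidine motif, through which their translation follows nutrient and growth signals. The mitochondrial ribosome makes the few proteins encoded by mitochondrial DNA, and all of its own proteins are encoded in the nucleus and imported.

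Start regions of a few members, some with this motif and some without it, are printed here. The genes were picked from both ends of the range of changes described below. They are RefSeq sequences of build GRCr8, 50 bases each, 30 before the annotated start and 20 from it, 5′ to 3′ on the gene's strand. Capitals start at the first C within 5 bases of the annotated start that is followed by at least 4 more pyrimidines, and mark the run from there. Pyrimidines directly before that C stay in small letters, as in Rpl35, where the whole run is longer than the marked part.
Rps18 (chr20:4933715-4933764, plus strand): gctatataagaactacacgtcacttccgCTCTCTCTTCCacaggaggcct
Rpl35 (chr3:43165902-43165951, minus strand): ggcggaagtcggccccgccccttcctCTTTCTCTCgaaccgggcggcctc
Rpl13 (chr19:68062484-68062533, plus strand): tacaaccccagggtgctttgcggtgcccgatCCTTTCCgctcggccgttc
Rplp0 (chr12:46718371-46718420, minus strand): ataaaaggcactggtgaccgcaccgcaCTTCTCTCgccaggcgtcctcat
Rpl3 (chr7:113507971-113508020, minus strand): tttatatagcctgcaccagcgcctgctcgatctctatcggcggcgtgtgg
Rpl41 (chr7:1563478-1563527, minus strand): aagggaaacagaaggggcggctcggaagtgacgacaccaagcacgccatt
Mrpl9 (chr2:184771037-184771086, plus strand): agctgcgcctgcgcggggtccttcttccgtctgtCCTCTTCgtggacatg
Mrpl2 (chr9:21834588-21834637, minus strand): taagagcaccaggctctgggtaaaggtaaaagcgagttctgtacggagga
Mrpl47 (chr2:117447342-117447391, minus strand): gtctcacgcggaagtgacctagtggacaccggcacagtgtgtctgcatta

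RefSeq start regions were found for 66 of 81 cytosolic and 57 of 70 mitochondrial genes. The pyrimidine start stood in 40 of 66 cytosolic genes (60.6%) and in 15 of 57 mitochondrial genes (26.3%), beside 17.0% of all 27457 start regions in the table. These shares take the annotated start as exact to 5 bases. Genes such as Rpl21 and Rps3, with a run that ends before those bases, were counted as without it, so the motif may be undercounted. Rps18, Rpl35 and Rpl13, which had the largest falls among the genes shown, carry the run, and so does Rplp0, which changed little. Rpl3 and Rpl41, which also changed little, have no such run in this window. Rpl7a, which is not shown, changed by -0.79. It has no run that starts within 5 bases of the annotated start, but a long one stands shortly before that start. Over the 300 bases around the start, the letters CCGGAAG, bound by ETS factors such as GABPA, were found on either strand in 31.8% of cytosolic, 28.1% of mitochondrial and 9.22% of all regions. TATAAA stood in 10.6% of cytosolic, 12.3% of mitochondrial and 14.3% of all regions, CACGTG in 7.58%, 12.3% and 6.65%, and CCAAT in 24.2%, 43.9% and 37.7% of the same 3 groups. These are matches of letters and not binding sites.

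After high density culture the mRNAs of the cytosolic ribosome were lower as a group and, with arrays scaled to their 75th percentile, those of the mitochondrial ribosome were lower by less. The median log2 change, high minus regular density, was -0.42 over the cytosolic probes, a level 0.747 times that at regular density, and -0.18 over the mitochondrial probes, a level 0.884 times. Over all 15183 probes tested the median was -0.08. Of 141 cytosolic probes 96 fell and 0 rose, while of 78 mitochondrial probes tested 10 fell and 1 rose, at an adjusted p under 0.05 with limma. At that threshold 30.5% of all tested probes were called, 17.7% lower and 12.8% higher. With this scaling the cytosolic share called lower, 68.1%, was well above the background share, and the mitochondrial share, 12.8%, was below it. After quantile normalization 4.96% of cytosolic probes were called, below the 26.6% of all probes. Cytosolic probes are also far brighter than most, and bright probes were lower as a whole, as set out below. At an unadjusted p under 0.05 the cytosolic counts were 118 lower and 0 higher.

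How many cytosolic probes were called depended on how the arrays were brought to one scale. The counts above come from scaling each array to its 75th percentile of intensity. After quantile normalization, and with the authors' own normalized values, 7 cytosolic probes were called and the median change was -0.14. Without scaling 11 were called with a median of -0.32, after cyclic loess 9 were called with a median of -0.14, and after scaling to the median 95 were called with a median of -0.55. The cytosolic median stayed below 0 under each of these 6 scalings. For the mitochondrial set the same scalings gave 1 to 16 calls and medians of -0.07 to -0.30. The order of the sets also depended on the scaling, since the mitochondrial median, -0.15, was slightly below the cytosolic one, -0.14, after quantile normalization and with the authors' values. The called count also rested on single libraries, since leaving out high density replicate 1 gave 19 cytosolic calls, leaving out high density replicate 2 gave 40, and leaving out regular density replicate 1 gave 64. For the mitochondrial set the counts were 2 and 6 when high density replicates 1 and 2 were left out in turn. With a bulk sample, fewer cells that make a transcript and less of it per cell cannot be told apart.

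**Figure D1:**
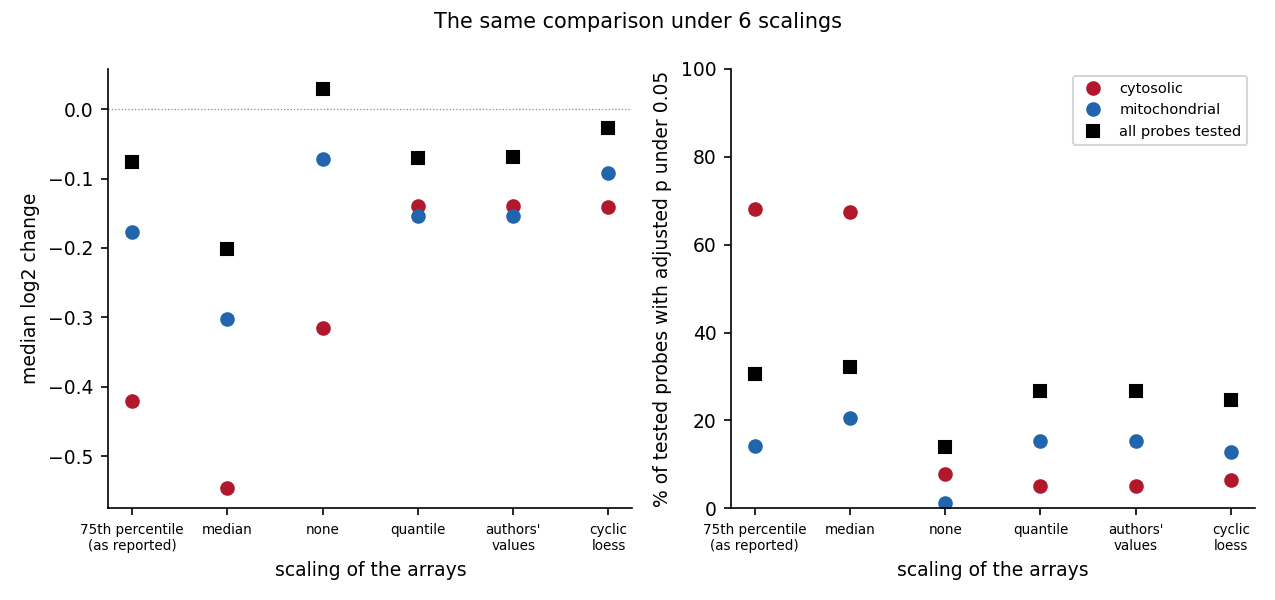
Median log2 change, high minus regular density (left), and share of tested probes at an adjusted p under 0.05 (right) for cytosolic probes (red), mitochondrial probes (blue) and all probes tested (black squares) under 6 ways of scaling the arrays. The cytosolic share is 68.1% with the 75th percentile and 4.96% with quantile normalization, where it lies below the 26.6% of all probes.

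Array by array, the difference in the cytosolic set was larger than the spread between replicates. The median scaled log2 intensity of its probes was 14.74 and 14.77 on the 2 high density arrays, against 15.19 and 15.18 on the 2 regular density arrays. Both high density arrays lay below both regular density arrays for 123 of 141 cytosolic probes (87.2%), where 41.3% of all tested probes did so. In the mitochondrial set the medians were 10.13 and 10.01 at high density, against 10.18 and 10.16 at regular density, and 52 of 78 probes (66.7%) were lower on both high density arrays. The 4 ways to pair a high density with a regular density array gave cytosolic medians of -0.45 to -0.36 and mitochondrial medians of -0.21 to -0.17. Before any scaling, cytosolic probes held 10.4% and 10.6% of the summed intensity at high density, against 11.9% and 11.8% at regular density. Mitochondrial probes held 0.283% and 0.291%, against 0.271% and 0.275%.

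**Figure D2:**
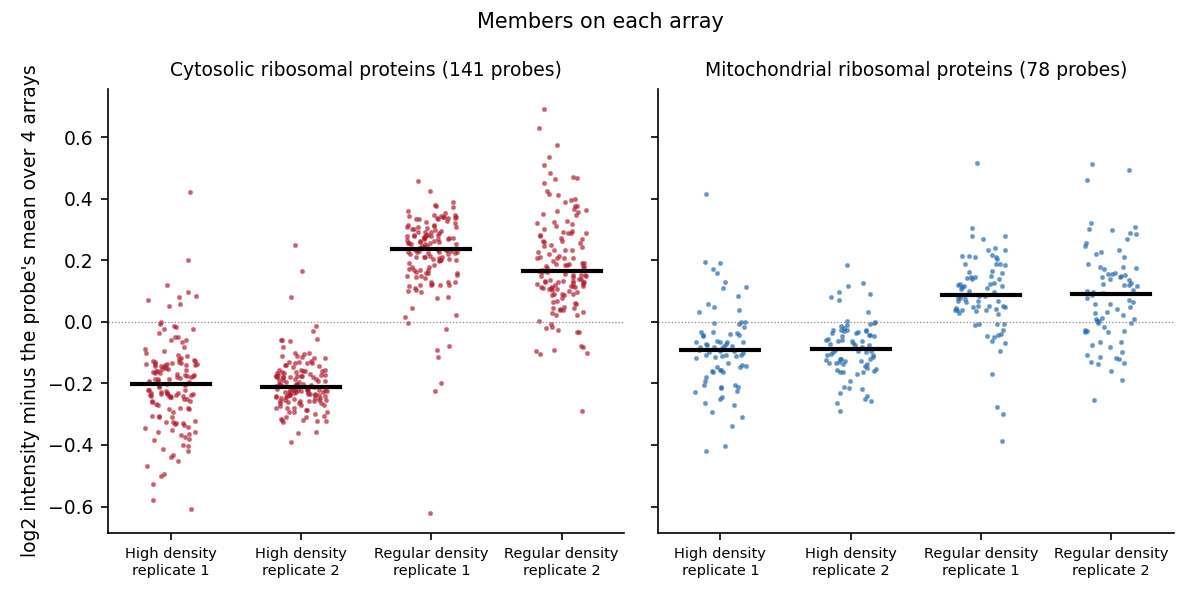
Each point is 1 tested probe on 1 array, drawn as its scaled log2 intensity minus its own mean over the 4 arrays, with black bars at the median, for the 141 cytosolic (left) and 78 mitochondrial (right) probes. The high density medians lie below 0 and the regular density medians above it in both panels, with a wider gap for the cytosolic set.

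On the array as a whole, the 75th percentile of intensity was 386 and 462 at high density and 355 and 435 at regular density, and 218 of the 221 members lay above background on all 4 arrays. Mrpl43 and 1 of 2 Mrpl50 probes were too dim to test. The 4 matched endothelial progenitor markers summed to 559 and 402 units of scaled intensity at high density and to 420 and 308 at regular density. All 7 markers of stromal cells and fibroblasts were above background in both groups. They summed to 270862 and 253746 units at high density and to 266584 and 233767 at regular density. The smooth muscle markers, with 6 of 6 matched and 6 above background on both high density arrays and 5 on both regular density arrays, summed to 155264 and 149982 units of scaled intensity at high density and to 15902 and 15265 at regular density. The markers of dividing cells, with 5 of 7 matched and 5 above background at high density and 4 at regular density, summed to 4485 and 4420 at high density and to 1234 and 1334 at regular density, and those of monocytes and macrophages, with 8 of 8 matched and above background in both groups, to 42557 and 37455 at high density and to 30771 and 29036 at regular density. Of the last list C1qa, C1qb and C1qc rose, Cd14 fell by 0.38, Cd68, Ptprc, Itgam and Csf1r were not called, and the median difference was 0.14. The part of such differences in the results on ribosomal proteins was not tested.

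Within the cytosolic set both subunits moved alike. Of 89 probes for the large subunit 58 fell and none rose, with a median change of -0.42, and of 52 probes for the small subunit 38 fell and none rose, with a median of -0.42. By gene, 61 of 81 had at least 1 probe called lower, 44 had all their probes called lower, and 20 had none called. The interquartile range of the cytosolic changes was 0.16 log2 units, beside 0.18 for the mitochondrial set and 0.55 for all probes tested.

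The largest falls in the small subunit were in Rps18, which sits in the head of the subunit. Its probe, at chr20:5086832-5086891 by the authors' annotation (no assembly is named there), had scaled log2 intensities of 14.95 and 15.11 at high density, against 15.83 and 15.73 at regular density. The change was -0.75 (SE 0.11, n = 2 arrays per group, adjusted p = 0.00469, limma), and the groups did not overlap. Rps28 had 13.97 and 14.27 at high density, against 14.69 and 14.93 at regular density, a fall by 0.69 (SE 0.14).

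In the large subunit Rpl35, a protein beside the exit of the tunnel through which the new chain leaves, had the largest fall, and its 3 probes differed. Its dimmest probe, at chr3:18790559-18790618, had 12.00 and 12.24 at high density, against 12.86 and 13.01 at regular density, a change of -0.82 (SE 0.12, adjusted p = 0.00502, limma). A second probe that overlaps it had 13.23 and 13.25 at high density, against 13.95 and 13.86 at regular density, a change of -0.66. The brightest, at chr3:18787991-18788050, had 16.18 and 16.12 at high density, against 16.52 and 16.23 at regular density, a change of -0.22 (SE 0.13) with an adjusted p of 0.225 in limma. Rpl23a, another protein of the tunnel exit, fell on both of its probes, with 13.86 and 13.86 at high density, against 14.53 and 14.43 at regular density, on the brighter one. Its changes were -0.63 and -0.63, and no array of one group overlapped the other.

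Rpl7a had 11.03 and 11.46 at high density, against 11.74 and 12.33 at regular density, a change of -0.79 with a standard error of 0.22. Its replicates lay far apart in both groups, although the groups did not overlap. Rpl13 had 12.07 and 12.19 at high density, against 12.69 and 13.00 at regular density, a change of -0.71 (SE 0.13). Rpl32 had 14.49 and 14.38 at high density, against 15.06 and 15.17 at regular density, on the probe that moved most, a change of -0.68 (SE 0.10). The 6 probes called lower under all 6 scalings were those of Rpl13 and Rps18, 1 each of Rpl23a and Rpl32, and 2 of Rpl35. Rpl23a is not in the rule for named genes and was chosen after its values were seen.

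The stalk of the large subunit, which recruits elongation factors, did not move as one. Rplp1 had 14.68 and 15.09 at high density, against 15.54 and 15.72 at regular density, a change of -0.75 (SE 0.16, adjusted p = 0.016, limma). Rplp2, its partner, changed by -0.31 (SE 0.11) with an adjusted p of 0.0735 in limma. The base of the stalk, Rplp0, had 16.92 and 16.66 at high density, against 16.99 and 16.72 at regular density, on its brighter probe, a change of -0.07 (SE 0.14). That change turned positive without scaling, after quantile normalization, with the authors' values and after cyclic loess. Rplp0 is the brightest member, and its unscaled intensity read 117275 and 117332 at high density and 113621 and 115543 at regular density. Readings above 65535, the largest value of a standard scan, were also given by other members, with 7 and 15 cytosolic probes over it at high density and 15 and 23 at regular density. The deposited table carries no saturation flag.

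Members known for a role outside the ribosome or for a human blood disorder are given next, beside a set in which 68.1% of probes were called lower. Rpl5, which together with Rpl11 can bind Mdm2, had 13.18 and 13.29 at high density, against 13.72 and 13.86 at regular density, and fell by 0.56 (SE 0.10). Its partner Rpl11 changed by -0.42 (SE 0.14), with an adjusted p of 0.0572 in limma. Rps6, the substrate of the S6 kinases, fell on both probes by 0.56 and 0.32, and the second change turned to 0.01 after cyclic loess. Rps19, which is mutated in human Diamond-Blackfan anaemia, fell on all 3 of its probes, by 0.41 to 0.65, while Rps24 and Rps26, mutated in the same disease, were not called. Rps14, whose loss marks the human 5q- syndrome, fell by 0.47 and 0.41 on its brighter probes, while its dimmest read 13.00 and 12.98 at high density, against 13.08 and 13.08 at regular density, a change of -0.09 (SE 0.09). Rpsa, also known as the laminin receptor, fell by 0.57 and 0.39, Rps27 by 0.59 and 0.54, and Rps3, at the mRNA entry of the small subunit, by 0.43 and 0.42.

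Other members showed little or no change. Rpl3, near the peptidyl transferase centre, had 16.00 and 15.77 at high density, against 16.05 and 15.97 at regular density, a change of -0.13 (SE 0.12). Rpl41, the smallest ribosomal protein, had 16.18 and 15.90 at high density, against 16.18 and 15.98 at regular density, a change of -0.04 (SE 0.14). Unscaled, Rpl41 read 70531 and 69191 at high density and 64623 and 69034 at regular density. Rpl3 read 62137 and 63401 at high density and 59209 and 68438 at regular density. These readings lie near or above 65535, and whether that flattens a change was not tested. Rps26 changed by -0.05 (SE 0.12) and Rps24 by -0.22 (SE 0.13). In each of these the arrays of the 2 groups overlapped or lay as close as replicates did, and Rpl3 and Rps24 took a positive sign after quantile normalization, with the authors' values and after cyclic loess. Rpl41 and Rps26 are not in the rule for named genes and were chosen after their values were seen.

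Members with a close relative were compared by their values. Rpl22 had 14.75 and 14.79 at high density, against 15.30 and 15.15 at regular density, and fell by 0.46 and 0.44 on its probes. Its paralog Rpl22l1 had 12.22 and 12.30 at high density, against 11.91 and 12.11 at regular density, a change of 0.25 (SE 0.11, adjusted p = 0.125, limma). On that probe both high density arrays were higher, and it was called higher only after cyclic loess and with a replicate block. The other Rpl22l1 probe, which is dim, had 5.97 and 6.18 at high density, against 6.12 and 6.13 at regular density, a change of -0.05 (SE 0.19) with overlapping arrays. Rpl10 fell by 0.47 and 0.42, and the dim Rpl10l changed by -0.16 (SE 0.15). Rpl7 fell by 0.47 and 0.44, and Rpl7l1 changed by -0.14 (SE 0.12). Rps4x fell by 0.43 (SE 0.10), and the brighter probe of Rps4y2 changed by -0.27 (SE 0.10). Rpl39 fell by 0.44 on 1 probe and changed by -0.29 on the other, and Rpl36al changed by -0.30 (SE 0.17). Near-identical copies may share a probe's signal, so values of such pairs are uncertain.

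**Figure D3:**
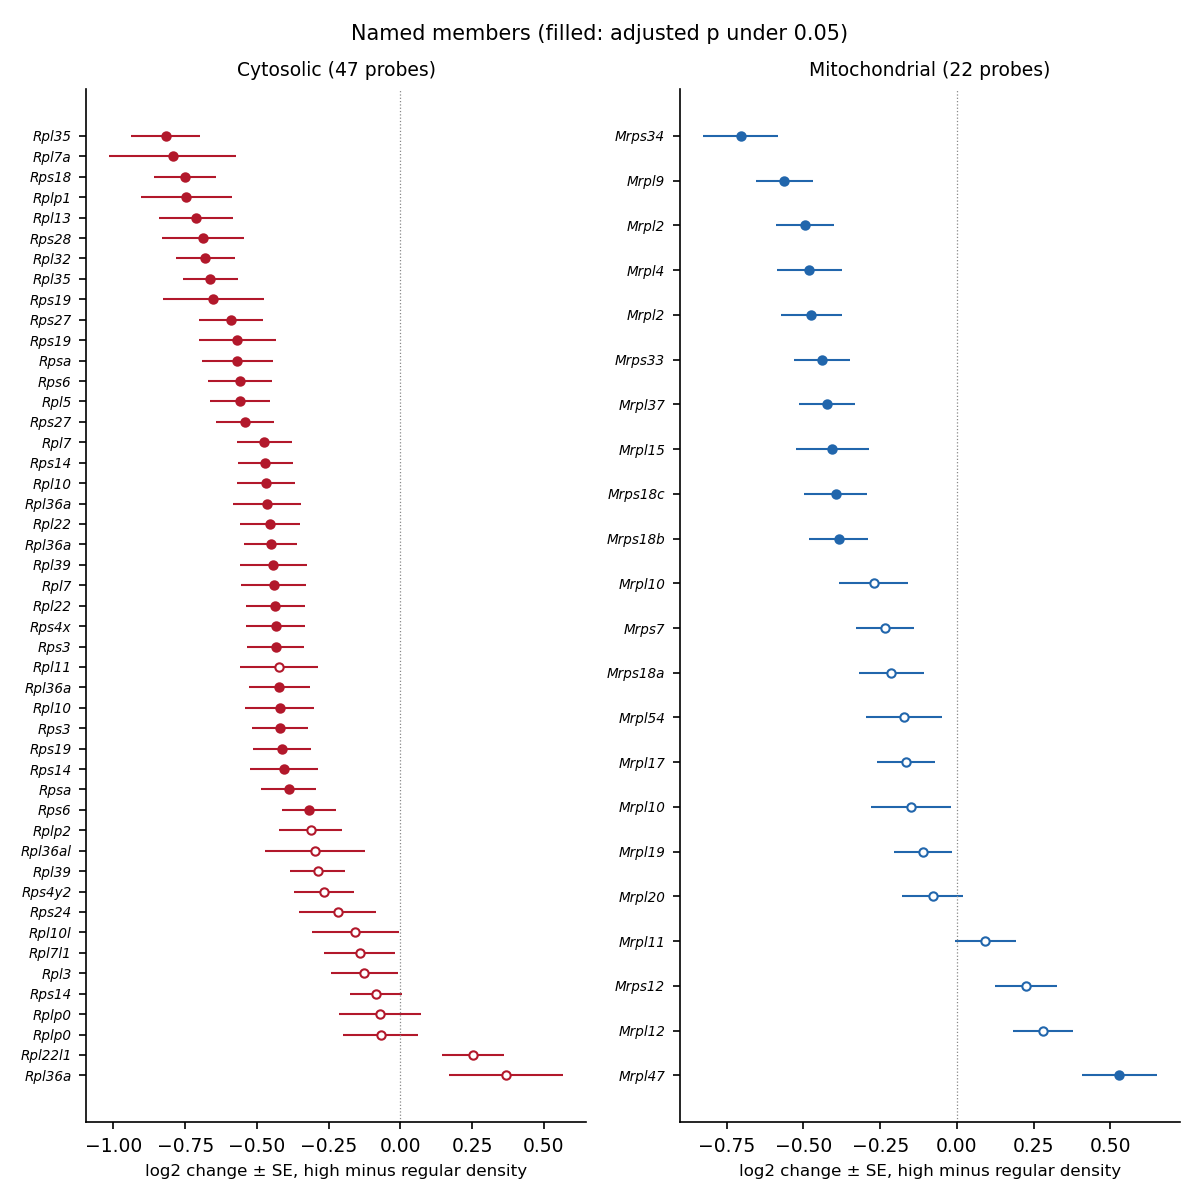
Log2 change, high minus regular density, with its standard error for 47 cytosolic (left) and 22 mitochondrial (right) probes named by rule, in order of size (2 arrays per group; filled points have an adjusted p under 0.05 in limma). Rpl35 stands at the top left with -0.82 and Mrps34 at the top right with -0.71, and Mrpl47 is the only filled point above 0.

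Several probes often measured 1 cytosolic gene, and these did not always give 1 answer. Among 45 genes with more than 1 probe, all probes were called in 23, some in 17 and none in 5, and no gene had probes called in opposite directions. The range between a gene's probes had a median of 0.14 log2 units. It was widest for Rpl36a, whose 3 brighter probes fell by 0.42 to 0.47 while its dimmest had 7.34 and 6.86 at high density, against 6.84 and 6.63 at regular density, a change of 0.37 (SE 0.20). The log2 change of a gene's brightest probe was above that of its dimmest in 27 of 45 genes. In Rpl28, chosen after its values were seen, the brighter probe changed by -0.28 and the dimmer fell by 0.65.

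Positions in the authors' table put 17 cytosolic probes of 8 genes on another chromosome than the one RefSeq gives for the gene, with only chromosome names compared because the builds differ. Those genes were Rpl8, Rpl9, Rpl10a, Rpl13, Rpl26l1, Rpl32, Rpl35a and Rpl38. Of these probes 14 fell, with a median change of -0.42, beside 80 of 122 on the same chromosome, with a median of -0.42. Rpl13, whose probe is placed on chromosome 8 and whose gene is on chromosome 19, and Rpl32, placed on chromosome 6 with its gene on chromosome 4, were among the genes called under all 6 scalings. Ribosomal protein genes have many processed copies in mammalian genomes, so which copy such a probe reports is uncertain.

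A further 318 rows of the authors' table are described there as ribosomal proteins under symbols that do not match the rule. Of 292 tested, 229 were called lower and 2 higher, with a median of -0.51. This group was picked out after its values were seen, and it is given as a description of probes that may detect the same transcripts.

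In the mitochondrial set most changes were small and few passed the test. Of 50 probes with Mrpl symbols 6 fell and 1 rose, and of 28 with Mrps symbols 4 fell and none rose, with medians of -0.17 and -0.19. The symbol alone was used for this split, and it does not settle the subunit of each protein. Mrps36 carries the symbol Kgd4 in RefSeq, so its place among ribosomal proteins is uncertain. Of 78 probes, 65 had a change below 0. By gene, 9 had a probe called lower and 1 a probe called higher, and 59 of 69 tested had none called.

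Mrps34, a protein of the small subunit, fell most. Its probe, at chr10:14145135-14145194 in the authors' table, had 7.75 and 7.88 at high density, against 8.41 and 8.63 at regular density, a change of -0.71 (SE 0.12, adjusted p = 0.00886, limma). Mrpl9 had 10.50 and 10.56 at high density, against 11.09 and 11.10 at regular density, a change of -0.56 (SE 0.09, adjusted p = 0.00718, limma). Its probe is printed 10 times on each array, and the standard deviation between those spots was 0.12 and 0.07 at high density and 0.07 and 0.06 at regular density. The groups did not overlap for either gene.

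Mrpl2, a core protein that binds the ribosomal RNA, had 2 probes, and they gave the same answer. The brighter had 10.77 and 10.71 at high density, against 11.28 and 11.15 at regular density, a change of -0.47 (SE 0.10). The dimmer had 9.32 and 9.33 at high density, against 9.85 and 9.78 at regular density, a change of -0.49 (SE 0.09). Mrpl4 fell by 0.48, Mrps33 by 0.44, Mrpl37 by 0.42 and Mrpl15 by 0.41. None of the 10 mitochondrial calls of a fall was kept without scaling, while all 10 were kept after quantile normalization and 7 after cyclic loess.

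The 3 Mrps18 paralogs, of which a mitochondrial ribosome holds several at different places, gave different calls. Mrps18b had 8.71 and 8.78 at high density, against 9.15 and 9.11 at regular density, and fell by 0.38 (SE 0.10, adjusted p = 0.0273, limma). Mrps18c fell by 0.39 (SE 0.10). Mrps18a had 9.80 and 9.71 at high density, against 10.05 and 9.89 at regular density, a change of -0.21 (SE 0.10) with an adjusted p of 0.169 in limma. The differences between paralogs were not tested.

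Mrpl47 was the 1 member of either set that rose. This protein of the large subunit belongs to the same universal family as Rpl35, the cytosolic gene with the largest fall. It had 10.21 and 9.91 at high density, against 9.52 and 9.54 at regular density, a change of 0.53 (SE 0.12, adjusted p = 0.0213, limma), and both high density arrays were above both regular density arrays. It was not called after median scaling or without high density replicate 1. Mrpl12, the stalk protein that also binds the mitochondrial RNA polymerase, had 11.37 and 11.26 at high density, against 11.01 and 11.06 at regular density, a change of 0.28 (SE 0.10, adjusted p = 0.0702, limma). Mrps12, a protein of the decoding centre, had 10.52 and 10.48 at high density, against 10.35 and 10.20 at regular density, a change of 0.23 (SE 0.10, adjusted p = 0.136, limma). Mrpl12 was called higher after quantile normalization and with the authors' values, and both were called higher after cyclic loess and with a replicate block. Other members named by rule did not pass the test, among them Mrpl10 (-0.15 and -0.27), Mrpl11 (0.09), Mrpl19 (-0.11) and Mrps7 (-0.23). The brightest mitochondrial probes, of Mrpl17, Mrpl20 and Mrpl54, changed by -0.17, -0.08 and -0.17. Among the dimmest probes Mrps14 changed by -0.11 (SE 0.32) and 1 of 3 cytosolic Rpl37a probes by 0.17 (SE 0.38), with overlapping arrays in both.

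The cytosolic probes are among the brightest on the array, with a median mean log2 intensity of 14.94 against 10.03 for the mitochondrial probes and 8.66 for all tested probes. Of the 100 brightest probes 25 were cytosolic members. Brightness bears on the comparison because probes with a mean above 14 were lower at high density in the median, although single genes among them were higher. The 417 such probes that were neither members nor described as ribosomal proteins had a median change of -0.33, beside -0.42 for the 106 cytosolic probes above that level.

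**Figure D4:**
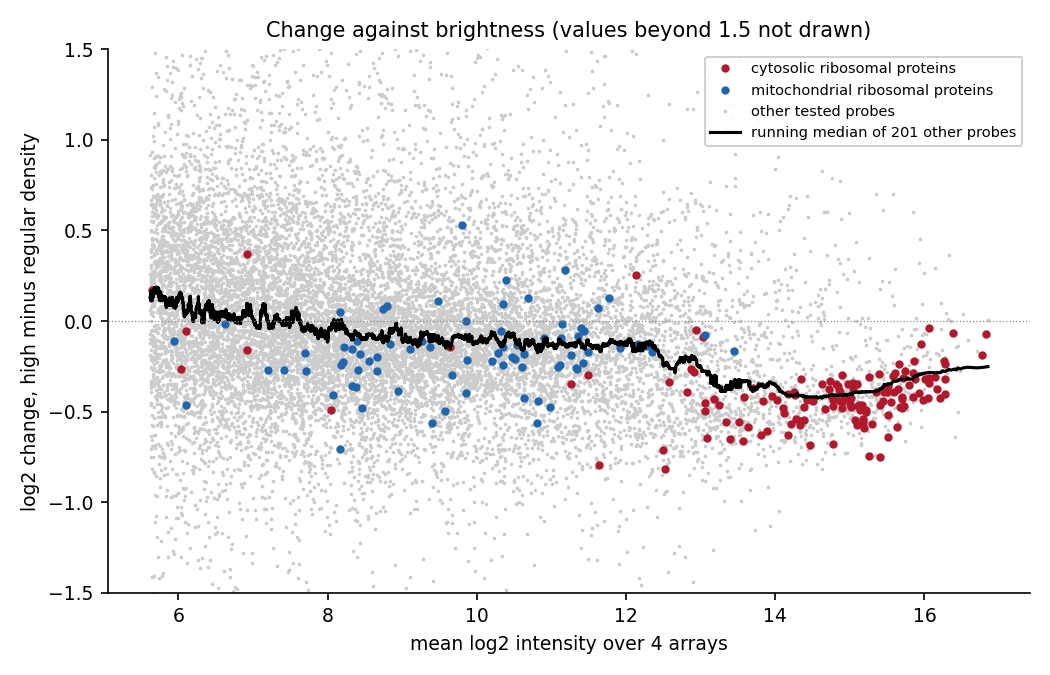
Log2 change, high minus regular density, against mean log2 intensity for cytosolic probes (red), mitochondrial probes (blue) and other tested probes (grey), with the running median of the others in black. The black line falls from above 0 for dim probes to about -0.4 near a mean of 14 to 15, where most red points lie, and the blue points lie where it is near -0.1.

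Each member was therefore set against the 200 tested non-members nearest to it in mean intensity (down to 101 at the bright end, where fewer exist). Those like probes had a median change of -0.35 for cytosolic members and -0.10 for mitochondrial members. The cytosolic members lay 0.07 log2 units below their like probes in the median (a difference of -0.07, SD over the 4 pairs of arrays 0.04), with 103 of 141 below. The mitochondrial members differed by -0.08 (SD 0.02), with 55 of 78 below. When rows described as ribosomal proteins were left out of the like probes, which was done after seeing the data, the differences were -0.10 with 108 below and -0.08 with 56 below. The like-brightness differences of the pairs of arrays ran from -0.14 to -0.03 in the cytosolic set and from -0.11 to -0.06 in the mitochondrial set. These pairs share arrays, so they are not independent and their SD is not a standard error. No test was made of the difference between the sets.

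In 3 bands of brightness each set had at least 3 probes, and there the cytosolic medians were lower. Bands in which a set had 1 or 2 probes were not compared. In the band of mean log2 intensity from 11 to 12 the median change was -0.35 over 3 cytosolic probes, -0.12 over 16 mitochondrial probes and -0.13 over 1144 other probes. From 12 to 13 it was -0.31 over 8 cytosolic, -0.14 over 3 mitochondrial and -0.19 over 811 other probes, and from 6 to 7 it was -0.11 over 4 cytosolic, -0.02 over 3 mitochondrial and 0.05 over 2569 other probes. The mean difference between the sets over these 3 bands was -0.16 (SD over the pairs of arrays, which are not independent, 0.07), and it was -0.05 without high density replicate 1. Each band held few probes of 1 set, and some share a gene.

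**Figure D5:**
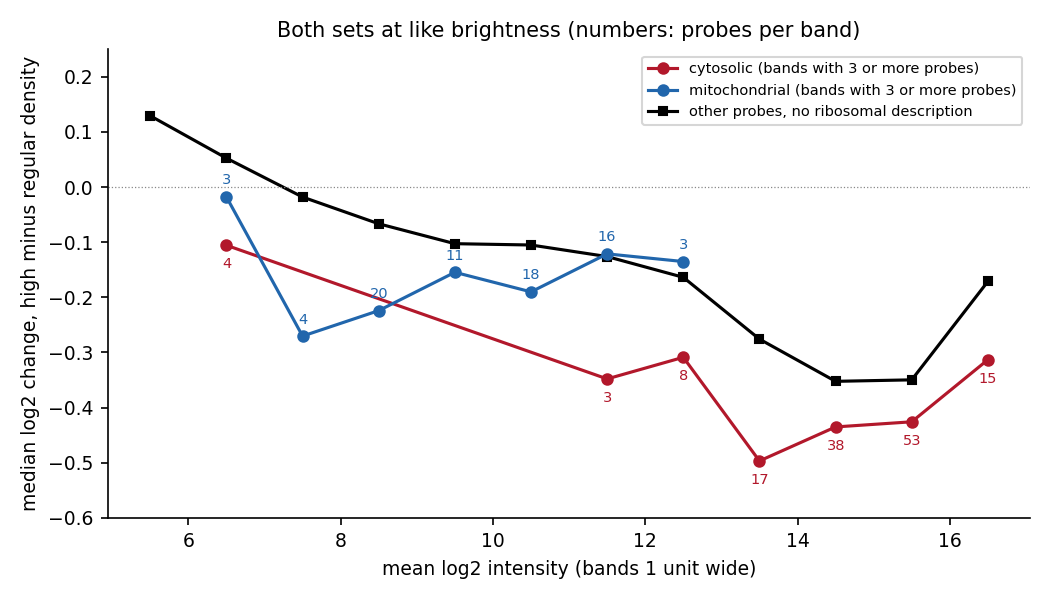
Median log2 change, high minus regular density, in bands 1 log2 unit wide of mean intensity, for cytosolic probes (red), mitochondrial probes (blue) and other probes without a ribosomal description (black), with the number of probes beside each point and bands under 3 probes left out. Red points lie below black ones in each band drawn, and blue points lie below black ones in 5 of the 7 bands drawn.

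Within the cytosolic set, the difference from like probes was not even across brightness. Between mean log2 intensities of 12 and 14 the 25 probes lay 0.17 units below their like probes in the median (a difference of -0.17), and 17 of them were called lower. The 38 probes from 14 to 15 differed by -0.03, although 33 of them were called lower, and the 53 from 15 to 16 differed by -0.07. At the bright end, the 15 probes from 16 to 17 differed by -0.03, and 3 of them were called lower. The 10 dimmest, from 5 to 12, differed by -0.21, and 3 of them were called lower. The probes with the largest falls of Rpl35, Rpl13 and Rpl7a all have means below 14.

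The pyrimidine start shown above was set beside the change of each gene's brightest probe. Of 40 cytosolic genes with it, 24 fell, with a median of -0.42 and a range of -0.75 to -0.05. Of 26 without it, 14 fell, with a median of -0.40 and a range of -0.79 to 0.25. Among mitochondrial genes 3 of 15 with it fell, with a median of -0.23, and 4 of 42 without it fell while 1 rose, with a median of -0.17. These are descriptions of small groups. Some genes counted as without it, such as Rps3, Rpl13a and Rpl7a, hold a pyrimidine run elsewhere in the window. The split thus depends on where RefSeq places the start, and it does not show which mRNAs lack the motif.

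Other genes of translation were counted in lists, with the brightest probe of each gene, and these counts stand beside the 17.7% lower and 12.8% higher of all tested probes. The lists held 25 calls in all, 3 without scaling and 8 without high density replicate 1. Of 18 genes listed as elongation factors and other mRNAs with the terminal oligopyrimidine motif, 10 fell and 1 rose, with a median of -0.40. Their start regions were not examined here. Eef2, which moves the ribosome along the mRNA, had 12.53 and 12.49 at high density, against 13.41 and 13.23 at regular density, a change of -0.81 (SE 0.10). Eef1b2 fell by 0.57 and Eif3f by 0.48, and the exception was Hnrnpa1, a nuclear RNA-binding protein, which rose by 0.49 (SE 0.13) and was noticed after its value was seen. This list, like the cytosolic set, is bright, with a median mean log2 intensity of 13.85.

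Of 30 initiation factors 1 fell (3.33%), Eif2s3x by 0.41, with a median of -0.09, while Eif3k changed by -0.35 and Eif3m by -0.50 without passing the test. Initiation factors listed for the oligopyrimidine motif were counted in the list above. There Eif3f and Eif4b fell, the second by 0.41, and Eif3e (-0.38) and Eif3h (0.06) were not called. Of 49 nucleolar assembly factors 4 fell and none rose, with a median of -0.08, among them Pes1 by 0.53, Nob1 by 0.60 and Nip7 by 0.45. Among 14 genes of RNA polymerase I and its factors 0 were called in limma, 2 had an unadjusted p under 0.05, and the median was -0.14. Rrn3, which recruits the polymerase, changed by -0.55 (SE 0.19), Ubtf by -0.25 and Taf1d by -0.21. Of 20 cytosolic aminoacyl-tRNA synthetases, which charge tRNAs, 5 fell, a share of 25.0%, which is near the background. Among them were Wars (a fall by 0.74), Cars (by 0.64) and Sars (by 0.64).

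On the mitochondrial side, 0 of 15 genes in the list of translation factors fell, with 1 at an unadjusted p under 0.05, and 1 rose. That list is not of factors alone. It also holds proteins of the mitochondrial ribosome whose symbols do not match the rule, such as Dap3 and Ict1. The gene that rose was Ptcd3, for a protein associated with the small subunit. It had 11.74 and 11.82 at high density, against 11.38 and 11.30 at regular density, a change of 0.44 (SE 0.10). The recycling factor Mrrf changed by -0.33 and Aurkaip1 by -0.22, neither past the test. Of 19 assembly and rRNA factors 1 fell, Fastkd2 by 0.33, with a median of -0.27, while Lrpprc (-0.34) and Eral1 (0.37) did not pass the test. Of 11 mitochondrial aminoacyl-tRNA synthetases Fars2 fell by 0.53 (SE 0.13) and Sars2 rose, with 10.41 and 10.34 at high density, against 9.49 and 9.25 at regular density, a change of 1.01 (SE 0.11, adjusted p = 0.00194, limma). Wars2 changed by 0.42 (SE 0.14) and was not called.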

How the data were processed

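Total RNA from the 4 cultures was labelled with Cy3 and hybridised to one-colour arrays. Per the submitters' processing notes, spots were read with Agilent Feature Extraction 11.0.1.1. Per the file headers, the deposited values per spot are intensity values, here found to be linear, with no detection or saturation flags. The authors also deposited normalized log2 values. Their method is not given in the sources used here.

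Of 44254 spots, 1377 controls were dropped, and log2 intensities of the spots of 1 probe were averaged. Each array was scaled to its 75th percentile, with the mean percentile of the 4 arrays added. Probes with a mean log2 intensity over the 4 arrays above 5.62, the median of all probes, were tested with limma 3.58.1 in R 4.3.3 (linear model without pairing, moderated variances with a trend, two-sided, Benjamini-Hochberg over all 15183 probes, threshold 0.05). The test was checked on simulated data. Background is the 99th percentile of 153 negative control spots per array. With 2 arrays per group, their number limits the precision.

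Members are probes, and probes of 1 gene share its transcript. The members and lists were chosen with earlier results of these data known. Genes named are, per set, the 8 largest called rises and falls, the 3 brightest and dimmest probes, a fixed group of members with paralogs or known roles, and the 3 smallest p of each list. 1 gene that the rule names is not reported here. Other settings tried were other scalings, the authors' values, floors, filters, variance models, a replicate block, 1 probe per gene and dropping arrays 1 at a time.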

Additional observations from a re-analysis of the deposited data

How the results depend on the processing

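All probes called numbered 2132 without scaling, against 4638 as reported. The cytosolic count was 7 after quantile normalization and with the authors' values, 11 without scaling and 9 after cyclic loess, 49 with the brightest probe per gene, where 81 probes stood for the set, and 56 without a variance trend. The mitochondrial count was 1 without scaling. The lists of other translation genes gave 25 calls as reported, 39 after median scaling, 3 without scaling and 15 after cyclic loess. The share of higher calls was 42.0% as reported, 27.1% after median scaling, 70.6% without scaling and 56.2% after cyclic loess. An unmoderated linear model gave 0 calls over all probes, both sets and the lists, with 4321 probes, 68 cytosolic and 20 mitochondrial, and 1 to 7 genes of each list, at an unadjusted p under 0.05.

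The cytosolic median change was -0.14 after quantile normalization and with the authors' values, -0.55 after median scaling, -0.32 without scaling and -0.14 after cyclic loess. The mitochondrial median was -0.15 after quantile normalization and with the authors' values, -0.30 after median scaling, -0.0719 without scaling, -0.0925 after cyclic loess and -0.15 with a stricter filter on dim probes. With that filter the mitochondrial difference from like brightness was -0.0362. The median of all probes tested was -0.08 as reported, -0.20 after median scaling, 0.0291 without scaling and 0.0103 without a filter on dim probes. The cause of these shifts was not tested. The cytosolic difference from like brightness kept its sign in every setting run, from -0.101 to -0.0275.

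Leaving out 1 array at a time gave 2569 to 4363 calls over all probes, 19 to 88 in the cytosolic set, 2 to 12 in the mitochondrial set and 8 to 28 in the lists. The cytosolic median ran from -0.45 to -0.38 and the difference between the sets in shared bands from -0.172 to -0.0533. The lone array left in a group is assumed to vary like the others.

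The replicate numbers occur in both groups, but the labels do not say that they pair the arrays. Deviations from the group means correlated at 0.368 between same-numbered arrays over the tested probes, with only 2 pairs. The median of the negative control spots was 13.35 on high density and 10.53 on regular density replicate 1. It was 1.93 and 1.99 on the arrays numbered 2. What the numbers mark was not tested. With the number as a replicate block, 7641 probes were called over all, 126 lower and 2 higher in the cytosolic set, 28 in the mitochondrial set and 62 in the lists.

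Named members took the other sign in these settings. After quantile normalization Rplp0 gave 0.0932 and 0.0476, Rps14 0.137, Rps24 0.0253, Rpl3 0.107, Mrpl20 0.149 and Mrpl17 0.0876. The authors' values gave 0.0932 and 0.0476 for Rplp0, 0.138 for Rps14, 0.0250 for Rps24, 0.107 for Rpl3, 0.148 for Mrpl20 and 0.0866 for Mrpl17. Without scaling Rplp0 gave 0.0367 and 0.0339, Rps14 0.0194, Mrpl20 0.0274 and the dim Rpl22l1 probe 0.0514. After cyclic loess Rplp0 gave 0.287 and 0.304, Rpl3 0.211, Mrpl20 0.139, Rps14 0.130, Rps24 0.115, Mrpl17 0.0657, Rpl39 0.0444, Rplp2 0.0284, Mrpl10 0.0224, Mrpl54 0.0165 and 1 Rps6 probe, called lower as reported, 0.0148. After median scaling Mrpl11 gave -0.0327. With 1 array left out, Rplp0 ran from -0.195 to 0.0581 and from -0.205 to 0.0623 on its probes, the dim Rps4y2 probe from -0.639 to 0.112, the dim Rpl22l1 probe from -0.159 to 0.0514, Rpl7l1 from -0.293 to 0.0086, the dim Rpl37a probe from -0.366 to 0.708, Mrps14 from -0.551 to 0.336 and Mrpl10 from -0.316 to 0.0182.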
